A study of Mus musculus with 12 samples.

Results

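The striatal miRNAs of R6/2 mice that had received an adeno-associated virus (AAV) with a short hairpin RNA against TRAX (shTRAX) were compared with those of wild type (WT) mice that had received the control AAV. The comparison asks which miRNAs of R6/2 striatum still differ from WT striatum under the hairpin. It used 6 of the 12 small RNA libraries of the study, 3 labelled R6/2 shTRAX and 3 labelled WT control. Mice labelled R6/2 were of the line B6CBA-Tg(HDexon1)62Gpb/3J, which carries exon 1 of the human huntingtin gene with an expanded CAG repeat and models Huntington's disease. The strain label of all mice was B6CBAFI/J. Each AAV was injected into both striata at 5 weeks of age, and the striatum was taken at 10.5 weeks. R6/2 mice with the control AAV are given beside them, because the compared groups differ in both genotype and AAV, and these cannot be told apart by this comparison alone. All groups had the surgery and an AAV, so none was untreated. The labels do not name the promoter of the hairpin, the control sequence or the cells that took up the virus, and they leave it unstated whether each library is a different mouse. The p-values thus reflect no more than the scatter among these libraries. Tsnax mRNA, which encodes TRAX, is not measured in miRNA data, and the knockdown was not checked here.

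A mature miRNA is cut from 1 arm (5p or 3p) of a hairpin precursor and finds its targets mainly through the seed, bases 2 to 8 from its 5′ end. TRAX and translin form a complex with RNase activity that removes the passenger strand of small RNA duplexes. The striatum is the brain region hit hardest in Huntington's disease, and the mutant huntingtin protein disturbs transcription there, including that of neuronal genes and of miRNA genes under the repressor REST and the activator CREB.

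The mature sequences of miRNAs that carry the main results are shown 5′ to 3′ with the seed in capitals, from RefSeq on GRCm38.p6, in which 41 of the 57 named miRNAs were found. The first pair shares the seed AACAGUC and fell in R6/2 shTRAX striatum.
miR-132-3p: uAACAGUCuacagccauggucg
miR-212-3p: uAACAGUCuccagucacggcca
The next pair comes from neighbouring hairpins on the X chromosome and shares the seed GCUACAU.
miR-221-3p: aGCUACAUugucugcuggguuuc
miR-222-3p: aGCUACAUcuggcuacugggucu
The miR-344 family members shown all fell; the first of these share the seed GAUCUAG and the last has another seed with a closely similar 3′ part.
miR-344-3p: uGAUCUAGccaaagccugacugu
miR-344c-3p: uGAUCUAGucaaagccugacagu
miR-344b-3p: cAUUUAGCcaaagccugacugu
Further neuronal or activity-linked miRNAs among those that fell have seeds of their own.
miR-22-3p: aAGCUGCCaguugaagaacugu
miR-139-5p: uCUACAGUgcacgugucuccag
The next sequences belong to miRNAs of the imprinted Dlk1-Dio3 region that were higher in R6/2 shTRAX striatum.
miR-496a-3p: uGAGUAUUacauggccaaucuc
miR-679-5p: gGACUGUGaggugacucuuggu
miR-667-5p: cGGUGCUGguggagcagugagcacg
The let-7 members below share the seed GAGGUAG, and both were higher.
let-7e-5p: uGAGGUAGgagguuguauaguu
let-7f-5p: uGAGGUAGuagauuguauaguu
The last set shares the seed AGCAGCA, and only miR-195a-5p passed the test with all libraries. miR-497a-5p passed only without R6/2 shTRAX replicate 3, and miR-16-5p passed neither with that library nor without it.
miR-195a-5p: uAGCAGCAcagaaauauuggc
miR-497a-5p: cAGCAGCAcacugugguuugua
miR-16-5p: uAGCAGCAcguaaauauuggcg

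Counts on mature miRNAs came to 14009951, 14444045 and 14236598 in the R6/2 shTRAX libraries and to 16907910, 14858622 and 15500709 in the WT control libraries, and 689 miRNAs passed the filter on low counts. Levels are CPM, counts relative to the TMM-scaled library total, and tests are edgeR's quasi-likelihood test over all 12 libraries with Benjamini-Hochberg adjustment at 0.05. The third R6/2 shTRAX library lay far from all others: on principal component 1 (34.2% of the variance) it scored 24.5, and the remaining 11 libraries scored between -5.54 and 0.382. Its deviation from the mean of all libraries went with the GC content of the mature miRNA (Spearman's rho 0.609 over 564 miRNAs), against -0.166 and -0.0457 in R6/2 shTRAX replicates 1 and 2. That rho lay between -0.362 and -0.238 in R6/2 control libraries and between -0.156 and 0.0937 in WT control libraries. Counts of calls, and the miRNAs named below whose call or size turned on it, are therefore given with and without replicate 3.

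R6/2 striatum under shTRAX differed from WT control striatum in 117 of 689 miRNAs (17%). Of these, 72 were higher (10.4% of those tested) and 45 were lower (6.53%), at a median log2 fold change of 0.077 over all miRNAs tested, and 216 passed an unadjusted p of 0.05. Without replicate 3 of R6/2 shTRAX the count was 171 of 700 (24.4%), 93 higher (13.3%) and 78 lower (11.1%), at a median of 0.038. Both fits called 107 miRNAs, 66 higher and 41 lower, each in the same direction. Some calls share reads: miRNAs whose counts lay within 2% or 1 count of each other in every library form sets, and the 117 calls then come down to 107. The count rested on each WT control library, since it was 55, 48 and 34 without WT control replicates 1, 2 and 3. In 257 of 689 miRNAs (37.3%) the 3 R6/2 shTRAX libraries did not overlap the 3 WT control libraries, and in 432 (62.7%) they did not when replicate 3 was left out. Leaving out any library can only keep or raise such a count, so the rise does not measure an effect of replicate 3.

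Beside this, R6/2 striatum with the control AAV differed from the same WT control libraries in 73 of 689 miRNAs (10.6%), 50 higher (7.26%) and 23 lower (3.34%). Without R6/2 shTRAX replicate 3, which then no longer enters the estimate of the spread, that count was 210 of 700 (30%), 120 higher (17.1%) and 90 lower (12.9%). Both comparisons share the WT control libraries, so their values are given side by side and not as independent evidence. The list counts for R6/2 control below stand against these shares, 7.26% higher and 3.34% lower, or 17.1% and 12.9% without R6/2 shTRAX replicate 3. The direct test of R6/2 shTRAX against R6/2 control called 1 of 689 (0.145%), with 1 higher (0.145%) and 0 lower (0.0%), and 135 passed an unadjusted p of 0.05. DESeq2 called 13 in that test. Without R6/2 shTRAX replicate 3 edgeR called 2 of 700 (0.286%), 2 higher (0.286%) and 0 lower (0.0%), and 75 passed an unadjusted p of 0.05.

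**Figure D1:**
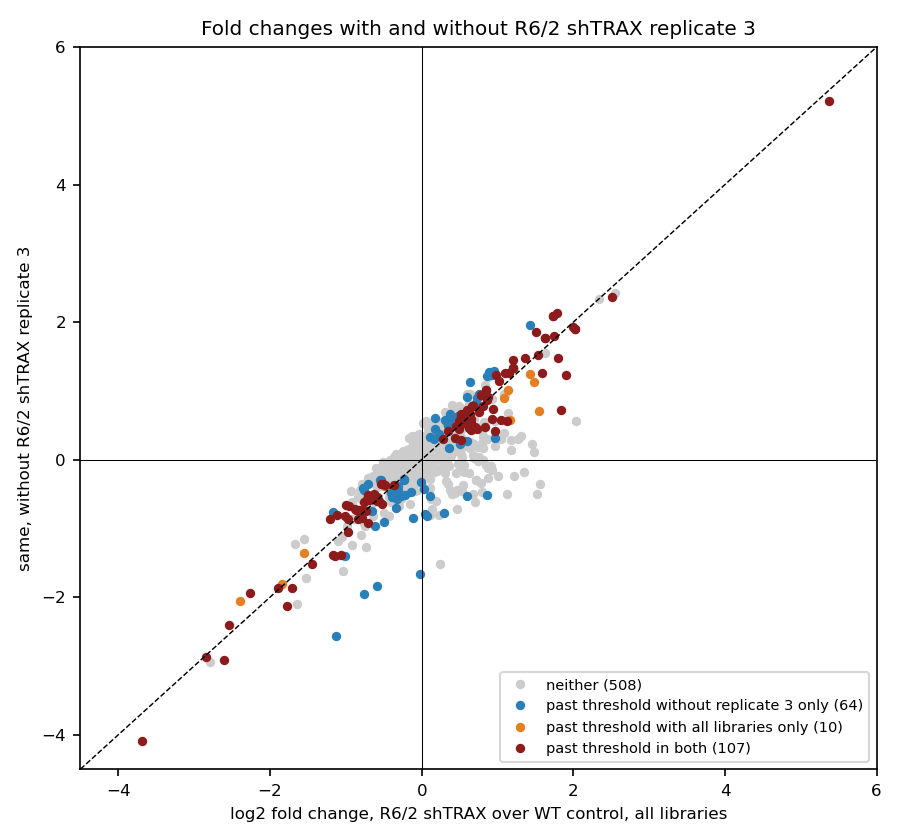
Log2 fold change of R6/2 shTRAX over WT control for each miRNA in both fits, with all libraries on the x axis and without R6/2 shTRAX replicate 3 on the y axis. The 107 miRNAs called in both have the same sign in both fits, though some lie off the diagonal, such as miR-667-5p at 1.90 and 1.23. The 64 called only without replicate 3 include miRNAs whose sign differs between the fits.

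All 4 mature miRNAs of the neighbouring hairpins miR-212 and miR-132 fell in R6/2 shTRAX relative to WT control. The hairpins lie on chromosome 11 at 75173388 to 75173478 and 75173682 to 75173747 (GRCm38, plus strand), in an intron of 1700016P03Rik, and are induced by neuronal activity through CREB. miR-132-3p had 1258, 1185 and 1654 CPM in the R6/2 shTRAX libraries, against 4356, 4939 and 4149 CPM in the WT control libraries. The groups are well apart. The 3 R6/2 control libraries, at 1534, 1280 and 1290 CPM, lie above R6/2 shTRAX replicates 1 and 2 and below replicate 3.
The log2 fold change of miR-132-3p was -1.71 ± 0.19 (SE, edgeR adjusted p = 0.000245), and -1.86 ± 0.18 without replicate 3 (adjusted p = 6.62e-05). R6/2 control stood at -1.71 against the same WT controls, and R6/2 shTRAX differed from R6/2 control by -0.00 ± 0.19 (adjusted p = 0.994). Without replicate 3 that difference was -0.165 ± 0.165 (edgeR adjusted p = 0.768).

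miR-212-3p, which has the same seed, had 53.4, 50.1 and 51.6 CPM in R6/2 shTRAX, against 187, 204 and 183 CPM in WT control. R6/2 shTRAX lay below R6/2 control (65.1, 59.1 and 61.2 CPM) in every library, but the difference of -0.26 ± 0.13 did not pass the test (adjusted p = 0.27). Against WT control the log2 fold change was -1.89 ± 0.13 (adjusted p = 4.95e-06), -1.87 without replicate 3, and -1.63 in R6/2 control.
The other strands followed in the same direction: miR-132-5p averaged 378 ± 41.3 CPM in R6/2 shTRAX and 1029 ± 124 CPM in WT control (SD, n = 3 each; log2 fold change -1.45, adjusted p = 0.00107 in edgeR), and miR-212-5p 68.1 ± 17.1 CPM in R6/2 shTRAX and 154 ± 13.5 CPM in WT control (-1.18, adjusted p = 0.0108). With miR-669c-5p, the miRNAs miR-132-3p, miR-132-5p and miR-212-3p were the 4 of 51 named calls that passed the test under all 23 alternatives to the processing.

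miRNAs known to be induced by neuronal activity (miR-132, miR-212, miR-22, miR-134 and others) had 17 members tested, 8 above 0 and 9 below. Their median of -0.35 was not stable: it was -0.045 without WT control replicate 2 and 0.222 with a minimum count of 50. Of the 17 members, 6 fell (35.3%, against 6.53% of all miRNAs) and 2 rose (11.8%, against 10.4%). The 6 that fell were both arms of the neighbouring miR-132 and miR-212 hairpins and both arms of miR-22, and no other member fell with all libraries. Without replicate 3, 7 fell and 2 rose, at shares of 41.2% and 11.8% against 11.1% and 13.3% of all. In R6/2 control 5 fell and none rose with all libraries, and 9 fell and 1 rose without R6/2 shTRAX replicate 3. miR-22-3p, whose hairpin is in exons of Mir22hg and Tlcd2 on chromosome 11 (75463716 to 75463810), had 658, 675 and 563 CPM in R6/2 shTRAX, against 1128, 1086 and 1140 CPM in WT control. The groups did not overlap, at a log2 fold change of -0.82 ± 0.13 (adjusted p = 0.00237), -0.73 without replicate 3, beside -0.66 in R6/2 control.
The members that rose were miR-127-3p and miR-134-5p of the Dlk1-Dio3 region. miR-127-3p had 14816, 15102 and 23464 CPM in R6/2 shTRAX, against 10580, 11354 and 10745 CPM in WT control, so that replicate 3 was far above the other R6/2 shTRAX libraries. Its log2 fold change was 0.71 with all libraries (adjusted p = 0.0136) and 0.47 without replicate 3 (adjusted p = 0.000304), beside 0.36 in R6/2 control (adjusted p = 0.183, and 0.000564 at 0.37 without R6/2 shTRAX replicate 3).

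Of 33 tested miRNAs enriched in neurons, 9 fell (27.3%, against 6.53% of all miRNAs) and 3 rose (9.09%, against 10.4%), and the median was -0.20. Without replicate 3, 15 fell (45.5%, against 11.1%) and 2 rose, and without any 1 WT control library 6 fell and 0 to 2 rose. In R6/2 control 4 fell and none rose with all libraries, and 14 fell and 1 rose without R6/2 shTRAX replicate 3. The list of miRNA genes repressed by REST gave 6 lower (33.3%, against 6.53% of all miRNAs) and 0 higher of 18 tested, at a median of -0.57. Without replicate 3, 8 were lower (44.4%, against 11.1%), at a median of -0.24. All 6 lower calls of the REST list with all libraries also stand in the neuronal list, so the lists are not independent. They are the 4 miRNAs of the neighbouring miR-132 and miR-212 hairpins, miR-124-3p and miR-139-5p. In bulk tissue, fewer cells of a type and less RNA per cell cannot be told apart.
miR-124-3p, the most widely studied neuronal miRNA, had 4192, 4039 and 3006 CPM in R6/2 shTRAX, against 6125, 6145 and 6218 CPM in WT control. All 3 values were below those of WT control, at a log2 fold change of -0.72 ± 0.18 (adjusted p = 0.0228), and -0.57 without replicate 3 (adjusted p = 0.0212). R6/2 control stood at -0.45 (adjusted p = 0.149), and at -0.43 without R6/2 shTRAX replicate 3, where it passed the test (adjusted p = 0.0386). The call of R6/2 shTRAX was lost without any 1 of the WT control libraries, with adjusted p = 0.0639, 0.0729 and 0.0773.
miR-139-5p lies in an intron of Pde2a on chromosome 7 (101475376 to 101475443). It had 1704, 1565 and 1251 CPM in R6/2 shTRAX, against 2862, 2546 and 2852 CPM in WT control, with no overlap. Its log2 fold change was -0.87 ± 0.16 (adjusted p = 0.00647), and -0.74 without replicate 3. R6/2 control, at 2161, 2147 and 1938 CPM, lay between the other groups at -0.40 (adjusted p = 0.146, and 0.0498 at -0.39 without R6/2 shTRAX replicate 3). Among the higher members, miR-330-3p averaged 74.5 ± 2.13 CPM in R6/2 shTRAX and 40.9 ± 1.96 CPM in WT control (SD, n = 3 each; log2 fold change 0.86, edgeR adjusted p = 0.011, and 0.0521 without WT control replicate 3).

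**Figure D2:**
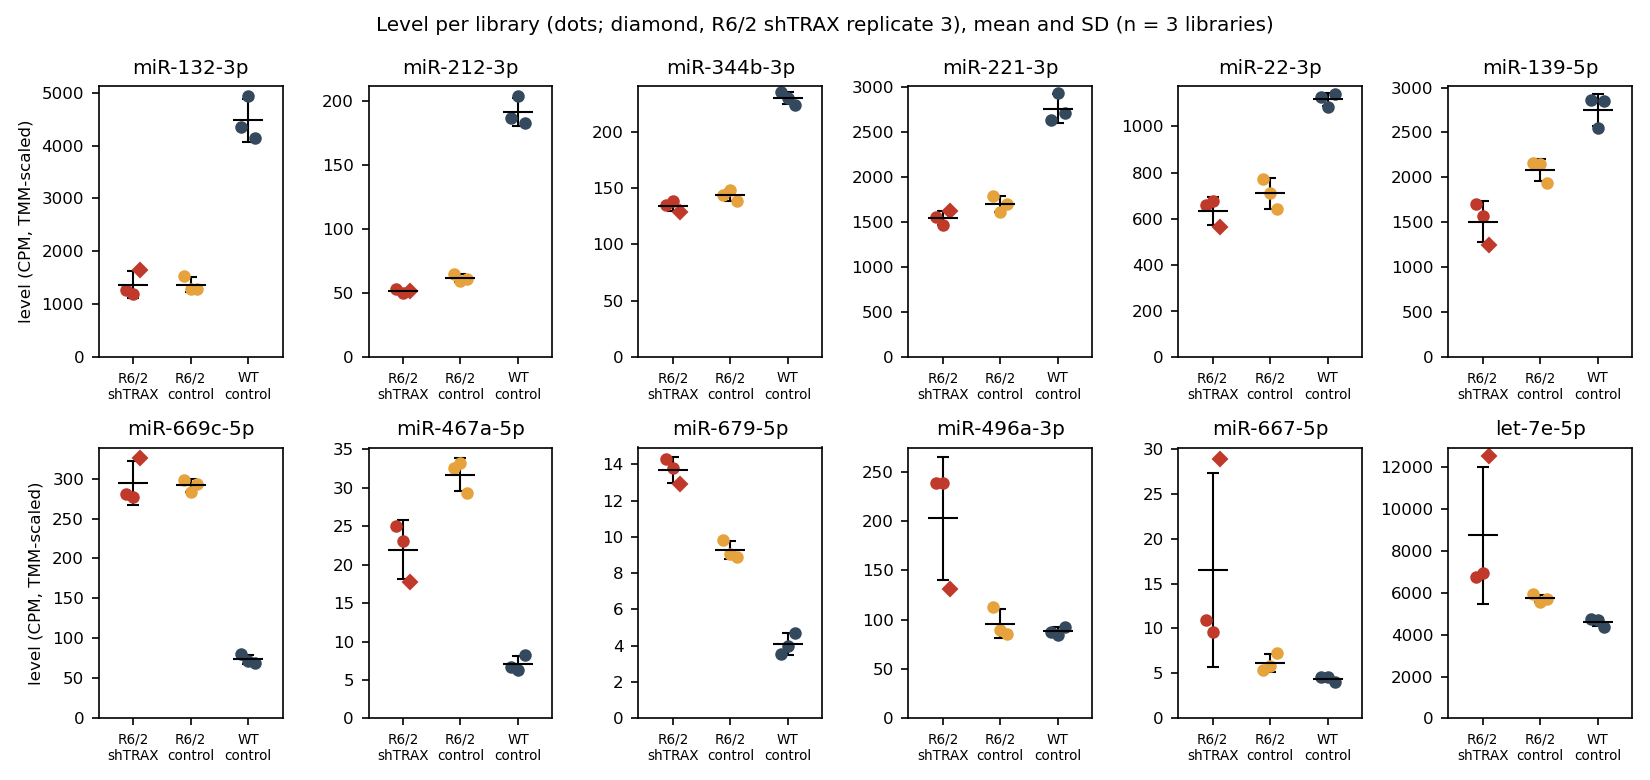
Level in CPM of 12 miRNAs in each library of R6/2 shTRAX, R6/2 control and WT control, with dots for libraries, a diamond for R6/2 shTRAX replicate 3, a horizontal line for the mean and bars for the SD (n = 3). The top row holds miRNAs that were lower in R6/2 shTRAX than in WT control, such as miR-212-3p at 50.1 to 53.4 against 183 to 204 CPM, and the bottom row holds those that were higher, including miR-667-5p and let-7e-5p, where replicate 3 is far above the other libraries.

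The miR-221 and miR-222 hairpins, neighbours on the X chromosome, are known for promoting proliferation in tumours. Of their 4 tested strands 2 fell and none rose, at a median of -0.55, beside 6.53% lower among all miRNAs. Without replicate 3, 3 fell and none rose, beside 11.1% lower among all. In R6/2 control 2 fell and none rose with all libraries, and 4 fell and none rose without R6/2 shTRAX replicate 3. miR-221-3p had 1549, 1460 and 1619 CPM in R6/2 shTRAX, against 2632, 2932 and 2703 CPM in WT control. Its groups did not overlap, and the log2 fold change of -0.84 ± 0.12 (adjusted p = 0.00134; -0.86 without replicate 3) stood beside -0.70 in R6/2 control.
miR-222-5p averaged 12.4 ± 1.13 CPM in R6/2 shTRAX and 20.6 ± 1.56 CPM in WT control (SD, n = 3 each; log2 fold change -0.73, edgeR adjusted p = 0.00647). miR-222-3p had 379, 376 and 542 CPM in R6/2 shTRAX, against 536, 579 and 549 CPM in WT control. Only replicate 3 reached the WT range, and miR-222-3p was called only without it (-0.54, adjusted p = 0.00213; with it -0.36, adjusted p = 0.123).

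The miR-344 family is encoded on chromosome 7, mostly in A230057D06Rik and A330076H08Rik. Of 9 tested members, 6 fell (66.7%, against 6.53% of all miRNAs) and none rose, at a median of -0.93 (-0.87 without replicate 3), while in R6/2 control 3 fell, and 5 without R6/2 shTRAX replicate 3. Without WT control replicate 3 the 6 lower calls came to 4. miR-344b-3p had 135, 138 and 129 CPM in R6/2 shTRAX, against 235, 230 and 224 CPM in WT control. The values were close within each group and far apart between them, at -0.78 ± 0.10 (adjusted p = 0.000725; -0.74 without replicate 3), and R6/2 control stood at -0.68.
miR-344-3p had 708, 709 and 576 CPM in R6/2 shTRAX, against 1053, 1069 and 1117 CPM in WT control, a log2 fold change of -0.70 ± 0.13 (adjusted p = 0.00647). miR-344d-3p averaged 147 ± 37.2 CPM in R6/2 shTRAX and 240 ± 10.7 CPM in WT control (SD, n = 3 each; -0.71, edgeR adjusted p = 0.0165, and 0.0521 without WT control replicate 3), and stood at -0.92 without R6/2 shTRAX replicate 3.
2 members rest on few reads. miR-344h-3p had 8 counts over the 3 R6/2 shTRAX libraries and 57 over the WT controls, a ratio of 0.155 per count sequenced with a 95% exact interval of 0.064 to 0.327. Such intervals hold counting error and no other. miR-344g-3p had 15 counts in R6/2 shTRAX and 62 in WT control, a ratio of 0.268 (0.142 to 0.476).

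The miR-297, miR-466, miR-467 and miR-669 families, encoded in a cluster of repeated hairpins within an intron of Sfmbt2, held the most higher calls of any list with all libraries; without R6/2 shTRAX replicate 1 they held 12 and the Dlk1-Dio3 cluster 14. Sfmbt2 is an imprinted gene that encodes a Polycomb-group protein, and the cluster is specific to rodents. Of 51 tested members, 29 rose (56.9%, against 10.4% of all miRNAs) and none fell, 50 lay above 0, and the median log2 fold change was 0.88, against 0.077 over all miRNAs. Without replicate 3, 36 rose (70.6%, against 13.3%) and none fell at a median of 1.08. In R6/2 control 39 rose and none fell at a median of 1.38 (47 without R6/2 shTRAX replicate 3), and the summed level of the list was 945, 913 and 805 CPM in R6/2 shTRAX, 1110, 1061 and 1087 CPM in R6/2 control, and 440, 410 and 429 CPM in WT control. The count was between 9 and 16 without any 1 of R6/2 shTRAX replicates 1 and 2 and the 3 WT controls, and the median then ran between 0.74 and 0.94.
By position, 49 tested miRNAs have their hairpin inside Sfmbt2 (chromosome 2, 10466663 to 10518279, GRCm38), all 49 lay above 0, and they include 27 of the 72 higher calls. The 1 list member below 0, miR-466q (-0.80), has its hairpin on chromosome 3, in Tnik. A member above 0, miR-466k, also lies outside Sfmbt2, on chromosome 3, and rose (1.78, edgeR adjusted p = 0.0235). Members with near-identical sequence share reads, so the values of single members are uncertain and the miRNAs are not independent. All sets of near-equal counts among the calls lay in these families, and counted as sets the 72 higher calls come down to 62. The share of higher calls in this list and its summed level thus count some reads more than once.

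miR-669c-5p had the smallest p of all miRNAs. It had 281, 277 and 326 CPM in R6/2 shTRAX, against 80.6, 71.8 and 69.8 CPM in WT control. R6/2 control, at 298, 283 and 293 CPM, lay above R6/2 shTRAX replicates 1 and 2 and below replicate 3. R6/2 shTRAX differed from it by 0.02 ± 0.11 (adjusted p = 0.925), and by -0.066 ± 0.089 without replicate 3 (edgeR adjusted p = 0.837). The log2 fold change of miR-669c-5p over WT control was 1.99 ± 0.12 (adjusted p = 1.79e-06), and 1.93 without replicate 3.
miR-467a-5p and miR-467b-5p had nearly equal counts and stand for 1 measurement. miR-467a-5p had 25.1, 23.1 and 17.7 CPM in R6/2 shTRAX, 32.6, 33.3 and 29.3 CPM in R6/2 control, and 6.68, 6.35 and 8.3 CPM in WT control. Each R6/2 shTRAX value lay between the R6/2 control range and the WT control range, at a log2 fold change over WT control of 1.63 ± 0.18 (adjusted p = 0.000245), while the difference from R6/2 control of -0.53 ± 0.17 did not pass the test (adjusted p = 0.194). Without replicate 3 these values were 1.77 and -0.40. miR-467c-5p (1.15 over WT control, 1.57 in R6/2 control), miR-467d-5p (1.10, 1.67), miR-669h-5p (1.54, 1.84) and the miR-297a-3p, miR-297b-3p and miR-297c-3p group of equal counts (1.20, 1.6) passed the test in both comparisons.
miR-467e-5p had 80.4, 75.7 and 41.9 CPM in R6/2 shTRAX, 107, 95.3 and 98.1 CPM in R6/2 control, and 35.5, 32.2 and 33 CPM in WT control. Replicate 3 was the lowest of the R6/2 shTRAX libraries, and the log2 fold change over WT control was 0.98 with it and 1.23 without it. The call with all libraries was lost without WT control replicate 2 or 3 (adjusted p = 0.055 and 0.0648), as was that of miR-669k-5p (1.36, adjusted p = 0.0658 and 0.0773).

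**Figure D3:**
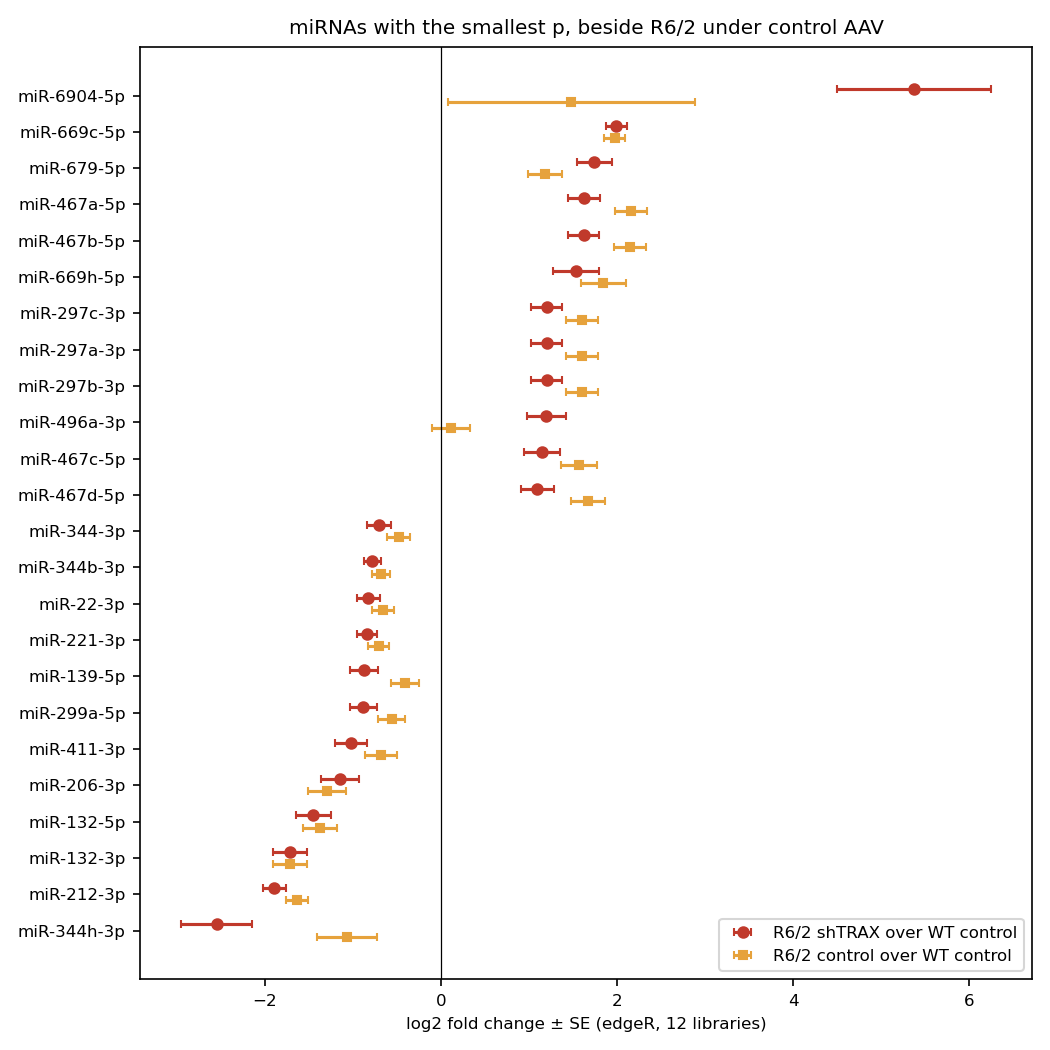
Log2 fold change over WT control with its SE for the 12 higher and 12 lower miRNAs with the smallest p, in R6/2 shTRAX (circles) and in R6/2 control (squares), both against the same WT control libraries. The miR-132 and miR-212 pairs lie close together at -1.71 and -1.71 and at -1.89 and -1.63, while miR-496a-3p stood at 1.20 in R6/2 shTRAX and 0.12 in R6/2 control.

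The Dlk1-Dio3 region of chromosome 12 holds a large imprinted miRNA cluster that is transcribed in neurons from the maternal chromosome. Of its 92 tested miRNAs, 11 rose (12.0%, against 10.4% of all miRNAs) and 7 fell (7.61%, against 6.53%), at a median of 0.07 beside the 0.077 of all. These shares are near the background. Without replicate 3, 13 rose (14.1%, against 13.3% of all) and 14 fell (15.2%, against 11.1%). Without any 1 WT control library 5 or 6 rose and 2 or 3 fell. In R6/2 control 2 rose and 4 fell, and 14 rose and 22 fell without R6/2 shTRAX replicate 3.
miR-496a-3p, in an intron of Mirg (109739119 to 109739197), had 239, 239 and 131 CPM in R6/2 shTRAX, against 87.9, 84.0 and 92.8 CPM in WT control. Every R6/2 shTRAX library lay above the R6/2 controls (113, 89.4 and 85.6 CPM) too, with replicate 3 the nearest to them. Its log2 fold change over WT control was 1.20 ± 0.22 (adjusted p = 0.00631), and 1.45 ± 0.13 without replicate 3 (adjusted p = 3.23e-05), beside 0.12 in R6/2 control (adjusted p = 0.777). The difference from R6/2 control was 1.08 ± 0.22 and did not pass the test with all libraries (adjusted p = 0.0949), whereas without replicate 3 it was 1.32 ± 0.13 and passed (adjusted p = 0.000496).
miR-679-5p had 14.3, 13.8 and 12.9 CPM in R6/2 shTRAX, 9.83, 9.06 and 8.9 CPM in R6/2 control, and 3.52, 3.99 and 4.72 CPM in WT control. The 3 groups did not overlap, and the log2 fold change over WT control was 1.74 ± 0.20 (adjusted p = 0.000245; 1.80 without replicate 3), beside 1.18 in R6/2 control. R6/2 shTRAX differed from R6/2 control by 0.56 ± 0.19 (adjusted p = 0.194).

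Replicate 3 set the size of other changes in this region. miR-667-5p had 10.9, 9.66 and 28.9 CPM in R6/2 shTRAX, against 4.61, 4.58 and 4.03 CPM in WT control. All R6/2 shTRAX libraries were higher, but the log2 fold change was 1.90 with replicate 3 (adjusted p = 0.00667) and 1.23 without it (adjusted p = 0.000421), and the other arm, miR-667-3p, stood at 0.95 and 0.74. miR-770-3p, named after its values were seen, had 29.4, 32.4 and 141 CPM in R6/2 shTRAX, against 20.3, 18.8 and 17.7 CPM in WT control (1.83 with replicate 3, 0.72 without).
The 1 miRNA called between the AAVs within R6/2 with all libraries was miR-412-5p, in an exon of Mirg, and the 2 called without replicate 3 were miR-412-5p and miR-496a-3p. It had 60.2, 68.6 and 110 CPM in R6/2 shTRAX, 35, 28.6 and 32.2 CPM in R6/2 control, and 49.0, 44.9 and 49.6 CPM in WT control. R6/2 shTRAX was thus above both other groups, at 0.73 over WT control (adjusted p = 0.034), and R6/2 control was below WT control at -0.58 (adjusted p = 0.113, and 0.00448 at -0.57 without R6/2 shTRAX replicate 3). The difference of 1.32 ± 0.21 between the AAVs (adjusted p = 0.0482) was no longer called without any 1 WT control library or without R6/2 shTRAX replicate 2, and was 1.01 without replicate 3 (adjusted p = 0.00298).
Among members that fell, miR-299a-5p had 204, 191 and 138 CPM in R6/2 shTRAX, against 337, 330 and 312 CPM in WT control, with no overlap (log2 fold change -0.88, adjusted p = 0.00515). miR-411-3p had 27.8, 27.2 and 17.4 CPM in R6/2 shTRAX, against 51.2, 48.9 and 46.7 CPM in WT control (-1.02, adjusted p = 0.00549). Replicate 3 was the lowest library for both, and without it the log2 fold changes were -0.71 and -0.82.

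let-7 miRNAs, abundant in mature neurons and known as repressors of growth genes, had 4 higher (19.0%, against 10.4% of all miRNAs) and 0 lower members of 21 tested, at a median of 0.16, and 7 higher (33.3%, against 13.3%) and 0 lower without replicate 3. In R6/2 control none was called with all libraries, and 7 were higher and 0 lower without R6/2 shTRAX replicate 3. let-7e-5p had 6770, 6963 and 12548 CPM in R6/2 shTRAX, against 4739, 4726 and 4372 CPM in WT control. Replicate 3 was far above the others, and the log2 fold change was 0.93 with it (adjusted p = 0.0135) and 0.59 without it (adjusted p = 0.000209). R6/2 control stood at 0.32 (adjusted p = 0.382), and at 0.34 without R6/2 shTRAX replicate 3 (adjusted p = 0.00253). Without WT control replicate 3 none of the 4 let-7 calls was kept, at adjusted p = 0.0511 for let-7e-5p and 0.0745 for let-7c-1-3p (log2 fold change 0.65 with all libraries).
The hairpins of let-7e, miR-125a and miR-99b are neighbours on chromosome 17. miR-125a-3p had 35.3, 37.5 and 78.9 CPM in R6/2 shTRAX, against 25.3, 24.9 and 23.5 CPM in WT control. miR-99b-3p had 56.9, 57.1 and 109 CPM in R6/2 shTRAX, against 42.1, 41.1 and 41.3 CPM in WT control. Both lay above WT control in every library, and replicate 3 again stood apart: their log2 fold changes were 1.04 and 0.84 with it and 0.58 and 0.47 without it. Both calls were lost without any 1 WT control library (adjusted p = 0.0639 to 0.079 over both). With all libraries 2 of the 11 tested members of the miR-125, miR-99 and miR-100 list rose (18.2%, against 10.4% of all miRNAs).
In the miR-181 family 3 of 10 tested members rose and none fell, beside 10.4% higher and 6.53% lower among all miRNAs. The family held 0 or 1 call without any 1 WT control library or R6/2 shTRAX replicate 2. miR-181c-3p averaged 75.1 ± 4.57 CPM in R6/2 shTRAX and 53.1 ± 1.49 CPM in WT control (SD, n = 3 each; log2 fold change 0.50, edgeR adjusted p = 0.0135), and miR-181d-5p 137 ± 10.5 CPM in R6/2 shTRAX and 97.1 ± 2.08 CPM in WT control (0.50, adjusted p = 0.0281). The first call was lost without WT control replicates 1 or 3 (adjusted p = 0.0512 and 0.0511) and the second without any 1 library other than R6/2 shTRAX replicate 3 (0.0528 to 0.0919).
miR-30c-1-3p (0.76, adjusted p = 0.0166) was the 1 call among 11 miR-30 members (9.09%, against 10.4% of all miRNAs). It was lost without WT control replicates 2 or 3 (0.0598 and 0.0767). miR-29b-2-5p (0.52, adjusted p = 0.0294) was the 1 call among 7 miR-29 members (14.3%, against 10.4%). It was lost without any 1 library other than R6/2 shTRAX replicate 3 (0.0736 to 0.13). With all libraries none of 8 miR-34 and miR-449 members and of 18 members of miR-17-92 and its paralogues was called in either direction; without replicate 3, miR-17-5p and miR-19b-3p of miR-17-92 were higher (0.59 and 0.60). The most abundant of each, miR-34a-5p and miR-93-5p, stood at -0.46 (adjusted p = 0.188) and 0.13 (adjusted p = 0.391).

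**Figure D4:**
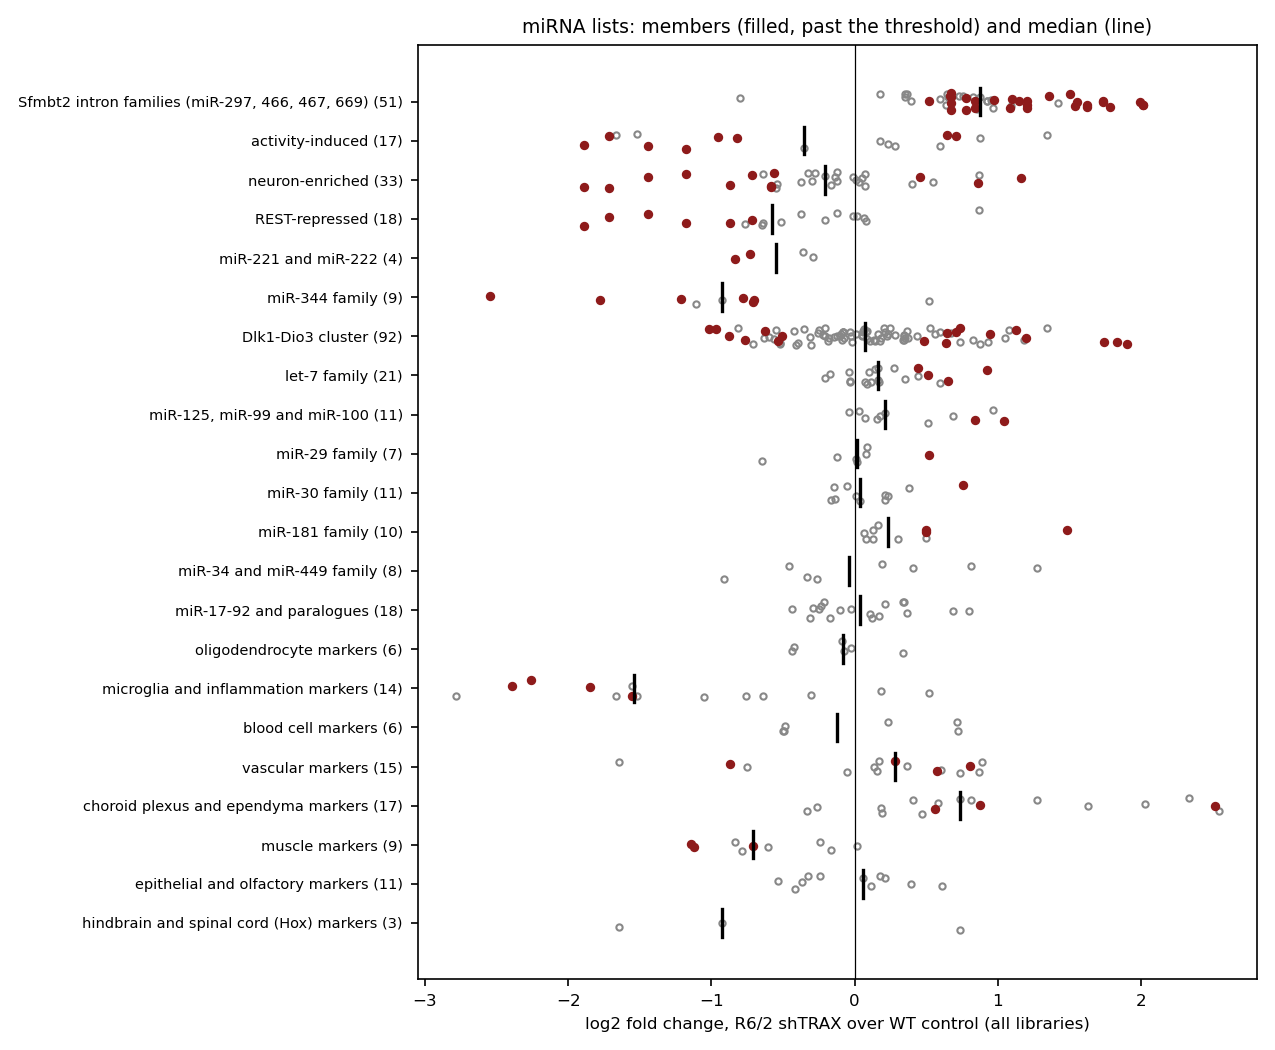
Log2 fold change of R6/2 shTRAX over WT control for the members of each list of miRNAs, with the number tested in brackets, filled points past the threshold, open points not past it and a black line at the median. The Sfmbt2 families lie at a median of 0.88 with 29 of 51 past the threshold, the miR-344 family at -0.93 with 6 of 9, and the Dlk1-Dio3 cluster spreads to both sides.

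miR-6904-5p, whose hairpin lies in an exon of Parp1 on chromosome 1 (180587201 to 180587267), was near the limit of detection in WT control. It had 0.797, 1.32 and 1.47 CPM in R6/2 shTRAX, against 0.0576, 0 and 0 CPM in WT control, and 0, 0 and 0.215 CPM in R6/2 control. The 49 counts in R6/2 shTRAX and the 1 count in WT control give a ratio of 54.3 with a 95% exact interval of 9.29 to 2186. The test gave an adjusted p of 0.00333 against WT control and of 0.0949 against R6/2 control. However, miR-6904-5p passed the filter on low counts only through libraries with shTRAX, where it was higher. These adjusted p-values are therefore given as values and not as support.

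Of the tested markers of microglia and inflammation, 12 lay below 0 and 2 above in R6/2 shTRAX against WT control, but only a minority was called. Of 21 deposited markers, 14 were tested, 4 fell (28.6%, against 6.53% of all miRNAs) and none rose, at a median of -1.54, and without replicate 3 only miR-147-3p was called and the median was -1.19. Without any other 1 library 0 to 2 were called. The summed level of the list was 6435 to 8002 CPM in R6/2 shTRAX and 12355 to 24991 CPM in WT control, and none of its markers was at 0 in all 6 libraries. R6/2 control spanned 7707 to 16259 CPM over the tested members. No member was called in R6/2 control in either fit, at a median of -0.60 with all libraries.
miR-142a-3p, which marks microglia and other cells of haematopoietic origin, had 498, 683 and 232 CPM in R6/2 shTRAX, against 1253, 2336 and 3819 CPM in WT control. The groups did not overlap but spread widely, at a log2 fold change of -2.39 ± 0.65 (adjusted p = 0.0287). That call was lost without R6/2 shTRAX replicate 1 or 3 (adjusted p = 0.062 and 0.0577) and without WT control replicate 2 or 3 (0.0729 and 0.122). miR-21a-5p, a miRNA of reactive glia, had 2498, 2643 and 1645 CPM in R6/2 shTRAX, against 4870, 6082 and 8975 CPM in WT control (-1.55, adjusted p = 0.0294, and 0.0632 without replicate 3). miR-147-3p rested on 45 counts in R6/2 shTRAX and 252 in WT control, and its call was lost without WT control replicate 3 (adjusted p = 0.0883).

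Markers of the choroid plexus and ependyma summed to 5737 to 6830 CPM in R6/2 shTRAX and 2301 to 2669 CPM in WT control, without overlap, and 17 of 21 markers were tested and miR-211-3p was at 0 in all 6 libraries. Of those tested 3 rose (17.6%, against 10.4% of all miRNAs) and none fell, at a median of 0.74, and 3 rose without replicate 3 (17.6%, against 13.3%). None was called without R6/2 shTRAX replicate 2 or WT control replicates 2 or 3, and 1 was called without WT control replicate 1. R6/2 control replicate 2 summed to 9298 CPM, against 2279 and 2501 CPM in the other R6/2 control libraries, so that the R6/2 control libraries spanned a wider range than the other groups together. miR-204-5p, the most abundant choroid plexus miRNA, had 3000, 3137 and 3687 CPM in R6/2 shTRAX, against 1113, 926 and 1134 CPM in WT control, and did not pass the test (1.63, adjusted p = 0.0751).
miR-1912-3p, in an intron of Htr2c, had 8.19, 12.4 and 14.1 CPM in R6/2 shTRAX, against 2.25, 1.96 and 1.82 CPM in WT control. Its log2 fold change was 2.52 ± 0.71 (adjusted p = 0.0325), and the neighbouring miR-1264-5p stood at 0.88 (adjusted p = 0.0269). Without R6/2 shTRAX replicate 2 neither was called (adjusted p = 0.0628 for each), nor without WT control replicate 2 or 3 (0.089 to 0.123 over both), and miR-1912-3p was also lost without WT control replicate 1 (0.0982). The part of these markers in the other results was not tested.

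Of 18 muscle markers 9 were tested and 3 were at 0 in all 6 libraries (miR-133b-5p, miR-133c and miR-208b-5p). Of the 9 tested, 3 fell (33.3%, against 6.53% of all miRNAs) and none rose, with 1 call left without any 1 WT control library. The sum was 912 to 1215 CPM in R6/2 shTRAX and 1351 to 1502 CPM in WT control. miR-206-3p had 51.6, 60.1 and 91.3 CPM in R6/2 shTRAX, against 147, 165 and 136 CPM in WT control, with replicate 3 nearest to WT control. The log2 fold change was -1.14 (adjusted p = 0.00647), -1.40 without replicate 3, and -1.29 in R6/2 control. miR-133b-3p (-1.12, adjusted p = 0.0294) and miR-133a-3p (-0.71, adjusted p = 0.0265) were lost without any 1 WT control library (adjusted p = 0.0693 to 0.102 over both).

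Among vascular markers, 15 of 21 were tested, miR-126b-5p was at 0 in all 6 libraries, 3 rose (20.0%, against 10.4% of all miRNAs) and 1 fell (6.67%, against 6.53%). The one that fell was miR-139-5p, which also stands in the neuronal list. The sum was 33427 to 40946 CPM in R6/2 shTRAX and 33629 to 34118 CPM in WT control, so that the ranges overlapped. Without R6/2 shTRAX replicate 3, 7 rose (46.7%, against 13.3% of all) and 2 fell (13.3%, against 11.1%). Without WT control replicate 3, 1 rose and 1 fell. miR-195a-5p had 582, 593 and 546 CPM in R6/2 shTRAX, against 390, 401 and 366 CPM in WT control (0.57, adjusted p = 0.0136, and 0.0521 without WT control replicate 3), and miR-195a-3p stood at 0.81 (adjusted p = 0.00899). miR-497a-5p, from the neighbouring hairpin, had 430, 423 and 186 CPM in R6/2 shTRAX, against 248, 222 and 216 CPM in WT control. Replicate 3 lay below WT control where the others lay far above it, so that miR-497a-5p was called only without it (0.92, adjusted p = 0.00131, against 0.60 and 0.151 with it).
For oligodendrocytes, 6 of 11 markers were tested, none was called, and none was at 0 in all 6 libraries. They summed to 6045 to 10512 CPM in R6/2 shTRAX and 8809 to 10545 CPM in WT control. The lowest sum was that of replicate 3: miR-338-3p had 8796, 8751 and 4005 CPM in R6/2 shTRAX, against 8358, 7107 and 7191 CPM in WT control, and its log2 fold change of -0.07 was 0.23 without replicate 3, neither past the test.
Blood cell markers (6 of 9 tested, miR-451b at 0 in all 6 libraries) summed to 32781 to 42540 CPM in R6/2 shTRAX and 28925 to 31989 CPM in WT control. Nearly all of this was miR-16-5p (0.23, adjusted p = 0.208), so the sum says little of the other members. Of the 6 tested, 3 lay above 0 and 3 below, at a median of -0.12, and none was called. Epithelial and olfactory markers (11 of 20 tested, 4 at 0, the most abundant being miR-203-3p at -0.41, adjusted p = 0.365) summed to 315 to 443 CPM in R6/2 shTRAX and 300 to 562 CPM in WT control. Hindbrain and spinal cord markers of the Hox clusters (3 of 11 tested, 4 at 0, led by miR-10a-5p at -1.65, adjusted p = 0.219) summed to 6.59 to 15.3 CPM in R6/2 shTRAX and 14.4 to 38.7 CPM in WT control. None of these was called. The part of cell composition in the results above was not tested.

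**Figure D5:**
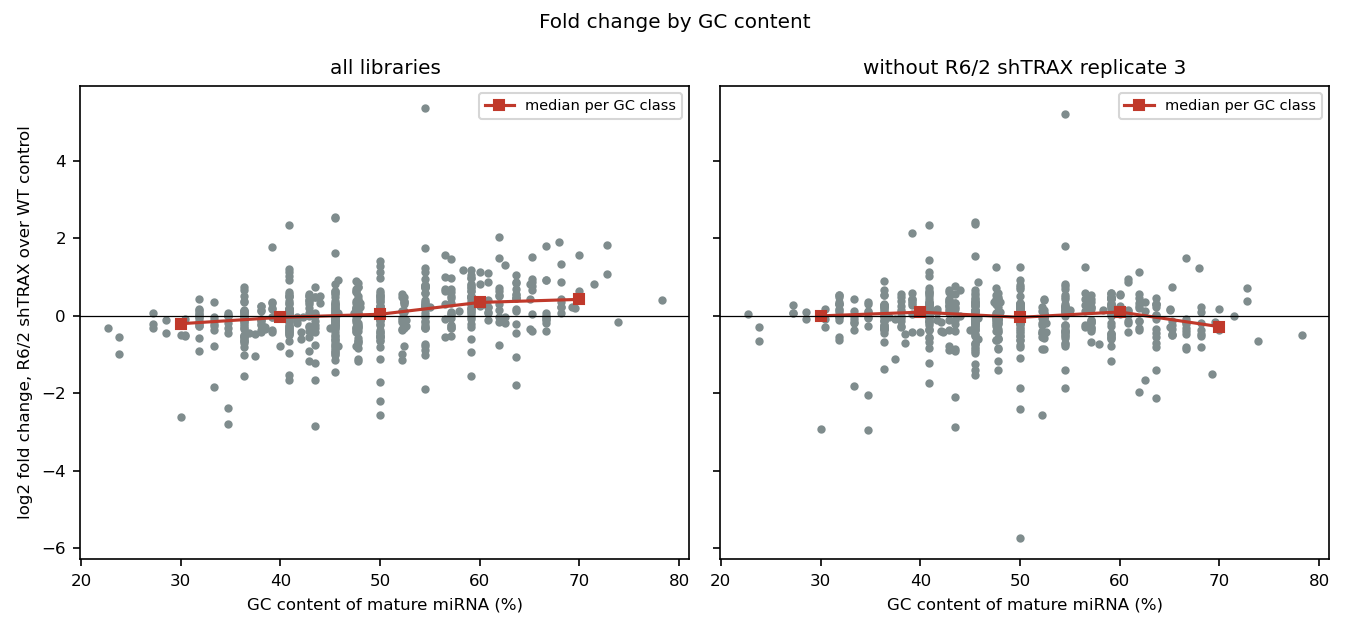
Log2 fold change of R6/2 shTRAX over WT control against the GC content of the mature miRNA in percent for 564 miRNAs, with all libraries (left) and without R6/2 shTRAX replicate 3 (right), and with squares for the median of each GC class. With all libraries the class medians run between -0.204 for the lowest GC class and 0.424 for the highest, and without replicate 3 between -0.279 and 0.1, with the highest GC class lowest.

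Across all miRNAs the effect of replicate 3 went with base composition. The Spearman rho of the log2 fold change with mature GC content was 0.357 over 564 miRNAs with all libraries and -0.068 without replicate 3, and miRNAs are not independent replicates. With replicate 3, 17 of the 117 calls had a value in replicate 3 that was more than 2-fold from the mean of the other R6/2 shTRAX libraries. Leaving it out ended 10 calls, among them miR-142a-3p, miR-142a-5p and miR-21a-5p, and added 64 (27 higher and 37 lower).
Some of the 64 show how far it lay from its group; they were chosen after their values were seen. miR-187-5p had 8.26, 8.68 and 44.0 CPM in R6/2 shTRAX, against 30.3, 31.1 and 30.6 CPM in WT control, and was -1.84 without replicate 3 (adjusted p = 0.00016) and -0.60 with it (adjusted p = 0.471). miR-485-3p had 123, 132 and 584 CPM in R6/2 shTRAX, against 183, 199 and 172 CPM in WT control, so that its sign turned between the fits (-0.52 without replicate 3, adjusted p = 0.00302, and 0.60 with it, adjusted p = 0.423). By contrast, miR-132-3p, miR-344b-3p and miR-669c-5p, which were called in both fits, had all 3 R6/2 shTRAX libraries on the same side of every WT control library. They were picked from the calls of smallest p, and 257 of 689 miRNAs (37.3%) had such a separation.

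Both arms of 234 hairpins were tested, which bears on strand choice because TRAX acts with translin on small RNA strands. In 15 hairpins both arms were called, and 14 of these moved in the same direction. The exception was miR-543, with miR-543-3p at -0.62 and miR-543-5p at 0.49. A further 53 hairpins had 1 arm called, the major arm in 38 and the minor arm in 15. The mean log2 ratio of minor to major arm over all 234 hairpins was -4.42, -4.41 and -4.47 in R6/2 shTRAX, against -4.39, -4.37 and -4.43 in WT control. The ranges overlapped, and the difference of -0.0365 was not larger than the spread (exact two-sided permutation test, p = 0.3, with 0.1 the smallest p that 3 against 3 libraries allow).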

How the data were processed

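Small RNA of mouse striatum was sequenced after library preparation with a QIAseq miRNA kit that adds molecular identifiers (75-cycle single-end reads), per the labels' protocols, which name TRIzol or a column kit for extraction without saying which sample had which. bcl2fastq 2.20, Trimmomatic and build GRCm38 are named in the submitters' processing notes; aligner, counter and use of the identifiers are not stated in the sources at hand. The authors deposited raw counts, per the file headers, in 2059 rows that each pair a mature name with its precursor. The deposited RPM values, recomputed as each count's share of its column, matched within 0.118 RPM and served only for an alternative.

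The tables for R6/2 and WT were joined on mature name and precursor, and of the 1915 mature names the 81 with several precursors kept the row with the highest mean. Library totals of the kept rows were 13849777 to 16907910. The test was edgeR's (version 4.0.16, R 4.3.3; quasi-likelihood, Benjamini-Hochberg, TMM, filterByExpr with a minimum count of 10, 1 mean per group over all 12 libraries). SE is the log2 fold change divided by the root of F. Intervals for counts are 95% exact binomial intervals turned into ratios. Alternatives used DESeq2 1.42.0, limma 3.58.1 and each library left out. Positions are from GENCODE M21, where 644 of 689 precursors were found by name. GC content was that of the mature sequence, known for 81.9% of tested miRNAs.

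The comparison, its members and the lists, which were written from general knowledge, were chosen with earlier results of these data known. The text names the 12 higher and the 12 lower calls of lowest p, up to 2 further called members of each list (or, if none was called, the most abundant), and the 6 higher and 6 lower by p in R6/2 control against WT control; further miRNAs, such as miR-412-5p, miR-466k, miR-17-5p, miR-19b-3p, miR-222-3p, miR-497a-5p, miR-204-5p, miR-21a-5p and those shown for their values in R6/2 shTRAX replicate 3, were chosen after their values were seen. Same-numbered libraries of R6/2 shTRAX and WT control had correlations of deviations of 0.0535, -0.23 and -0.163, and those of different number -0.225 to 0.261. With 3 libraries per group, and only these groups compared, this cannot tell whether replicate numbers mark a batch, which the labels do not state. The procedure was tested on simulated counts.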

Additional observations from a re-analysis of the deposited data

How the results depend on the processing

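The count of 117 miRNAs that differed between R6/2 shTRAX and WT control was 73 with no filter on low counts, 48 with only the 6 libraries compared, 268 with those libraries but R6/2 shTRAX replicate 3, and 282 with library quality weights; leaving out 1 library gave 34 to 171. The split of higher and lower calls was 72 and 45 with TMM, 51 and 52 with library totals only, and 40 and 53 with limma on log2(RPM + 1), where the median of all miRNAs was -0.0377 in place of 0.077. DESeq2 called 158, of which 116 were shared. GC offsets gave 137, and with replicate 3 left out, an alternative chosen after seeing the data, 174.

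The replicate number as a block gave 97 calls over all libraries, 111 with GC offsets and 12 over the 6 libraries compared. The labels do not state whether replicate numbers mark a batch, so these are values only. The count for R6/2 control was 46 with no filter, 263 with quality weights, 187 with GC offsets and R6/2 shTRAX replicate 3 left out, and 44 to 210 with 1 library left out. For R6/2 shTRAX against R6/2 control, the count of 1 was 0 with RLE scaling or the block, 13 with DESeq2, 31 with quality weights, 2 with limma on either pseudocount, no filter, a minimum count of 50 or any of the 3 fits with GC offsets, and 0 to 4 with 1 library left out.

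Of the named miRNAs 1 turned round: miR-338-3p was 0.221 with the compared libraries but replicate 3, 0.218 with quality weights, -0.243 to 0.231 with 1 library left out (0.231 without R6/2 shTRAX replicate 3, 0.012 without WT control replicate 1) and 0.192 with GC offsets and replicate 3 left out. The cause was not tested. The difference in the ratio of arms ran between -0.0546 and -0.0155 with 1 library left out. Of 51 named calls 31 held without any 1 library. Leaving a group with 2 libraries assumes that they vary like the other groups.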
